A study of Mus musculus with 31 samples.

Results

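The comparison set 3 RNA libraries from midazolam-exposed mice (MDZ P10) against 3 from control mice (Control P10), all collected at postnatal day 10. These 6 libraries were taken by their titles from 31 listed samples, 21 of which are RNA libraries with expression values. All 6 mice were C57BL/6 animals carrying Nestin-EGFP, a transgene in which regulatory sequence of the stem cell gene Nestin drives a green fluorescent protein. Control mice received distilled water and exposed mice received midazolam at 10 mg/kg, by intraperitoneal injection on postnatal days 7, 8 and 9, so cells were taken 1 day after the last of 3 injections. EGFP-positive cells of the hippocampal dentate gyrus were sorted by flow cytometry, and each library held mRNA of 50000 cells from 1 mouse. The replicates are therefore mice, and the p-values measure the spread between mice. The comparison asks what repeated exposure to a sedative in the early postnatal period does to the stem cell population soon after the exposure ends.

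Midazolam is a benzodiazepine that strengthens the response of GABA-A receptors, the chloride channels opened by the transmitter GABA. In the dentate gyrus, radial glia-like stem cells give rise to intermediate progenitors, then to neuroblasts and granule neurons, and in this lineage GABA can depolarise cells and regulate their division and maturation. Immediate early genes, among them the Egr, Fos, Jun and Nr4a transcription factors, are induced within minutes by calcium, cAMP and growth factor signals, and Notch signalling through the Hes repressors keeps radial glia undifferentiated. EGFP is stable and is passed on to daughter cells, so a Nestin-EGFP sort holds stem cells together with some of their offspring and other EGFP-carrying cells.

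The sorted cells carried the genes of radial glia at high levels. Fabp7, a lipid-binding protein of radial glia, lay between 750 and 1203 FPKM (fragments counted relative to transcript length and library size) in the 6 libraries, and the stem cell factor Sox2 between 87.4 and 106 FPKM. Nes itself, the gene behind the transgene, measured 8.71 to 11.1 FPKM. Defining genes of other types were present too, with Mbp of oligodendrocytes at 178 to 374 FPKM, Aqp4 of astrocytes at 182 to 237 FPKM and Cldn5 of endothelium at 42.5 to 52.6 FPKM. Globin genes were listed at 0. In a bulk library, fewer cells of a type and less RNA per cell cannot be told apart.

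Of 24062 genes listed, 12914 had a mean of at least 1 FPKM and were tested. Read totals were not used here, and relative depth, read from the step size of the lowest values, ran from 0.571 (Control P10 replicate 2) to 1 (MDZ P10 replicate 3), with 17623 to 18470 genes above 0. A pair of libraries touch the results. Control P10 replicate 2 stood farthest from the rest, with an SD of 0.152 for its log2 deviations against 0.0952 to 0.126 in the other 5. Control P10 replicate 1 was the only library with female-type expression, with Xist at 158.9 FPKM against at most 0.185 FPKM elsewhere, so the exposed group held male-type libraries alone. The larger moves in a list's count when 1 library is left out are given beside that count.

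A single gene passed an adjusted p of 0.05 (limma on log2(FPKM + 1), Benjamini-Hochberg over all genes), which is 0.00774% of those tested. It was Igsf1, lower in every exposed mouse. Differences elsewhere were small: the median log2 difference was 0.01, and 5% of genes lay below -0.17 and 5% above 0.23. At an unadjusted p below 0.05 there were 1575 genes, 1103 of them higher in MDZ P10 (8.54% of genes tested) and 472 lower (3.65%), a share of 70% higher. That split depends on scaling: the higher share was 53.4% with median-of-ratios scaling, 52.9% when each library was scaled to the same sum and 53.9% with quantile normalization. The median log2 difference of all genes was -0.0043, -0.0062 and -0.0051 under these, against 0.0148 as deposited. The 3 exposed libraries lay entirely above the 3 controls for 1570 genes (12.2%) and entirely below for 853 (6.61%), or for 1197 and 1276 genes with median-of-ratios scaling. Where a gene is said below to separate the groups, it belongs to one of these sets, and no gene other than Igsf1 passed over all genes. With 5 libraries separation is easier to reach: 16.3%, 21.6% and 19.3% of all genes separated upward without Control P10 replicates 1, 2 and 3, and 15.1%, 17.1% and 19.9% without MDZ P10 replicates 1, 2 and 3. The downward shares were 12.5%, 14.2% and 8.53%, and 10.7%, 8.8% and 12.1%. Counts of list members are to be read against 12.2% upward and 6.61% downward with all 6 libraries, and against these shares with 1 left out.

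Igsf1 encodes a membrane glycoprotein of the immunoglobulin superfamily and lies on the X chromosome (GRCm38.p6, chrX:49782536-49797907). It measured 9.63, 9.83 and 8.55 FPKM in the controls and 5.04, 5.10 and 4.68 FPKM in the exposed mice. All 3 exposed values were below every control, and the control with female-type expression (9.63 FPKM) lay between the other controls. The log2 change was -0.80 ± 0.07 (SE, n = 3 each, limma adjusted p = 0.0331). With 1 library left out the change ranged from -0.85 to -0.76, but the adjusted p stayed below the threshold only without Control P10 replicate 2 (0.0215). It was 0.084 without Control P10 replicate 1, 0.0538 without Control P10 replicate 3, and 0.377, 0.287 and 0.104 without MDZ P10 replicates 1, 2 and 3. The sequence table holds 3 starts for it, all inside the gene's annotated extent. The 250 bases before the most upstream of these 3 (RefSeq, GRCm38.p6, chrX:49797746-49797995, minus strand), a window that partly overlaps the annotated gene, are given because it is the gene that passed:
Igsf1: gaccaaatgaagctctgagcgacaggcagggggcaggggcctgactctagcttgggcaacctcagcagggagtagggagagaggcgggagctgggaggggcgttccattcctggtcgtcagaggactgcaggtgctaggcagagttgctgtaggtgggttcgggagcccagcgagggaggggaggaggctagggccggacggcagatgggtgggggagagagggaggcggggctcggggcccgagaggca

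Among genes that separated the groups upward, the 12 with the smallest p included a group of known signalling and Notch genes. Siah3, of the Siah ubiquitin ligase family, measured 4.54, 4.16 and 4.21 FPKM in controls and 7.03, 7.10 and 6.81 FPKM after midazolam (log2 difference 0.59 ± 0.06, limma adjusted p = 0.051). Atp5j2, a subunit of mitochondrial ATP synthase, measured 44.9, 50.6 and 49.0 against 92.5, 86.4 and 74.0 FPKM (0.79 ± 0.09, adjusted p = 0.0624). Nab2, an Egr-induced protein that binds Egr factors and represses their activity, measured 4.06, 3.93 and 3.74 against 6.70, 7.10 and 5.95 FPKM (0.62 ± 0.07, adjusted p = 0.0722). In each of these the exposed replicate 3 had the lowest of the exposed values, though still above all controls. Nab2 overlaps Stat6 in the annotation, and how fragments in shared sequence were assigned is not given in the sources used here.

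The pseudogene Gm12504 followed the same pattern, at 5.82, 5.54 and 6.37 against 10.0, 9.28 and 9.22 FPKM (adjusted p = 0.0624). Frs3, an adaptor that links FGF receptors to MAP kinase, measured 3.83, 3.51 and 3.44 against 6.15, 5.57 and 5.47 FPKM (log2 0.55 ± 0.07, adjusted p = 0.0961). Frs3 shares its locus with Tomm6 and Prickle4, and a pseudogene can take fragments of its parent gene, so both values are uncertain. Dio2, which activates thyroid hormone, measured 35.8, 34.99 and 35.5 against 44.5, 47.8 and 44.5 FPKM. Slc7a5, a transporter of large neutral amino acids that also carries thyroid hormone, measured 62.8, 57.0 and 57.4 against 78.8, 78.5 and 73.8 FPKM. Both had narrow control values and no overlap (log2 0.36 and 0.38, adjusted p 0.184 and 0.198). Hes5 and Hes1, described with the Notch genes, also belong to these 12, as do Csf2ra, a cytokine receptor subunit, Zfp414, a zinc finger gene, and A330093E20Rik (adjusted p 0.198 to 0.206).

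On the lower side, several of the 12 leading genes are known from connective tissue, mesenchyme or vessels. Fmod, the collagen-binding proteoglycan fibromodulin, measured 2.44, 2.77 and 2.55 FPKM in controls and 1.31, 1.37 and 1.66 FPKM after midazolam (log2 -0.55 ± 0.09, adjusted p = 0.198). Tbx18, a transcription factor of mural cells, measured 1.73, 1.87 and 2.26 against 1.03, 0.781 and 1.14 FPKM (-0.57 ± 0.11, adjusted p = 0.207). Ifitm1, an interferon-induced membrane protein, measured 3.31, 3.02 and 3.18 against 1.94, 1.48 and 2.21 FPKM. The groups did not overlap for any of these, and all were low in level.

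Prrx1, a homeobox factor of mesenchyme, measured 8.02, 7.52 and 7.37 against 6.01, 6.04 and 6.18 FPKM (log2 -0.29 ± 0.06). Pltp, which transfers phospholipids between lipoproteins, measured 31.9, 32.1 and 33.6 against 26.6, 25.7 and 25.8 FPKM (-0.31 ± 0.05, adjusted p = 0.198). Adcy8, a calcium-stimulated adenylyl cyclase that makes cAMP, measured 8.64, 8.03 and 7.99 against 6.19, 6.72 and 5.82 FPKM (-0.35 ± 0.07, adjusted p = 0.206). The remaining genes were the lysosomal sulfatase Arsa, Uaca, and 3 small RNA loci inside other genes (Mir7052 in Josd2, Mir703 in Cfap299 and Snord16a in Rpl4). A poly(A) library does not measure mature small RNAs, so those 3 values may come from their host transcripts and are uncertain.

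**Figure D1:**
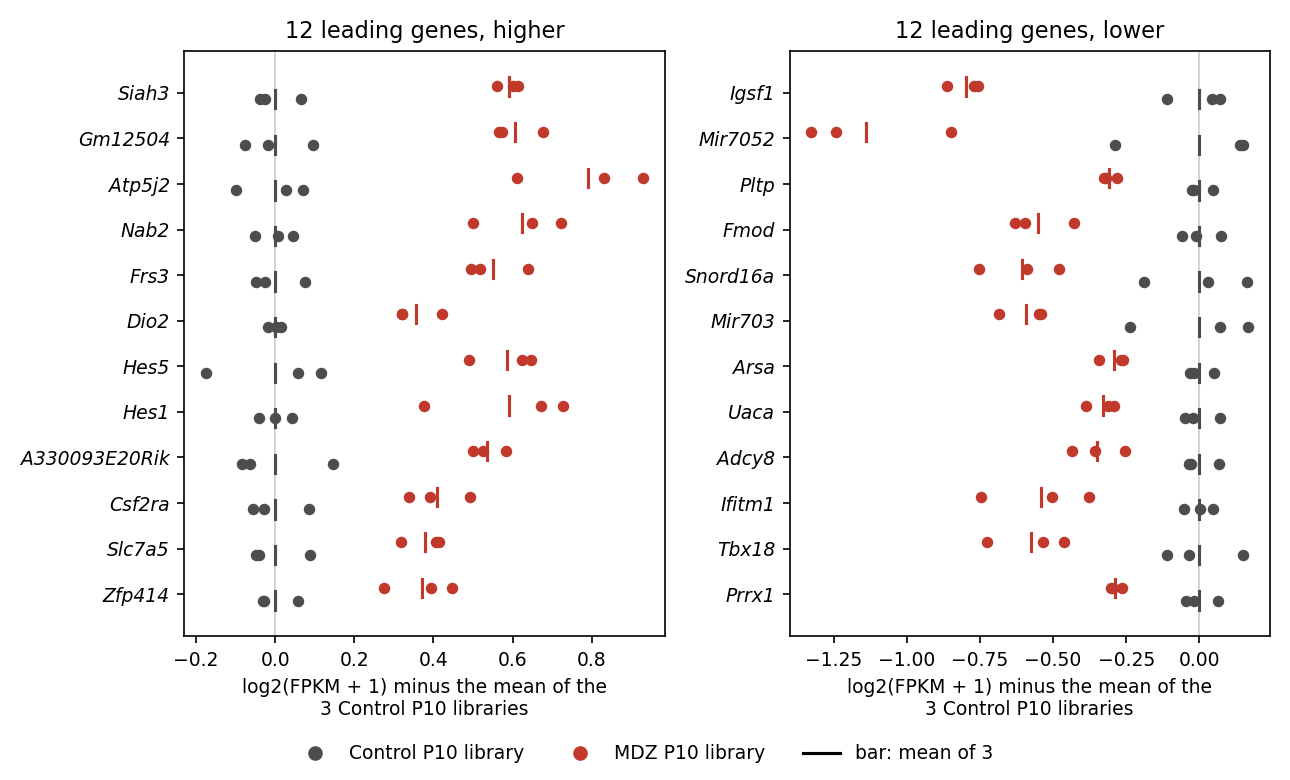
The 12 higher (left) and 12 lower (right) genes with the smallest p among genes whose groups do not overlap. Each point is 1 library on the log2(FPKM + 1) scale, set against the mean of the 3 controls, and bars are means of 3. Igsf1, the gene that passed over all genes, sits near -0.80, and its spread is small beside that of Mir7052.

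Immediate early genes lay mostly higher in the exposed mice, although none passed over all genes. Their levels are those of cells after sorting by flow cytometry, and the part of that handling in them was not tested. Of the Egr factors and Nab corepressors, 5 of 7 were tested, 4 had a positive difference (55.9% of all genes tested did) and the same 4 separated the groups upward, with a median log2 difference of 0.50 against 0.01 over all genes. Of the AP-1 factors, 9 of 11 were tested, all 9 were positive and 6 separated the groups upward (median 0.33). Of 30 further immediate early genes tested, 26 were positive, 12 separated the groups upward and 1, Homer1, downward (median 0.23). The background for separation is 12.2% of genes upward and 6.61% downward. At an unadjusted p below 0.05, 4, 6 and 14 members of these 3 lists were higher and 0 lower, beside 8.54% and 3.65% of all genes.

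Egr1, a zinc finger factor on which the culture experiment of the same study centres, measured 178, 150 and 187 FPKM in controls and 289, 269 and 231 FPKM after midazolam. All 3 exposed mice were above all controls, replicate 3 least so (log2 0.62 ± 0.11, limma adjusted p = 0.206). Its relatives were much lower: Egr2 measured 2.44, 1.48 and 2.17 against 3.11, 4.03 and 2.62 FPKM, and Egr3 0.735, 0.605 and 0.751 against 1.24, 1.80 and 1.22 FPKM. Both separated the groups, with log2 differences of 0.49 and 0.50 that understate the ratio at so low a level. Nab2 had almost the same difference as Egr1 (0.62), whereas Nab1, its relative, measured 5.87, 5.32 and 5.73 against 5.50, 5.60 and 5.27 FPKM and overlapped (-0.04 ± 0.06).

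Fos, the partner of Jun in the AP-1 dimer, was the most abundant of these genes at 383, 315 and 386 against 468, 484 and 408 FPKM (log2 0.33 ± 0.11, adjusted p = 0.314). Junb measured 62.0, 46.6 and 61.5 against 78.9, 90.9 and 70.0 FPKM (0.49 ± 0.13) and Jun 131, 114 and 132 against 175, 173 and 144 FPKM (0.38 ± 0.10). Fosb measured 71.2, 60.6 and 70.5 against 85.7, 88.7 and 80.5 FPKM (0.33 ± 0.08). In all 4 the lowest control was replicate 2, the library that stands apart, and the lowest exposed value was replicate 3. Fosl2 and Jund also separated the groups (0.18 and 0.21), while Maff, a small Maf protein, overlapped.

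Ier2, a nuclear protein of the immediate early class, measured 52.8, 41.2 and 53.6 against 84.0, 81.1 and 66.9 FPKM (log2 0.64 ± 0.12, adjusted p = 0.206). Nr4a1, an orphan nuclear receptor, measured 46.7, 41.6 and 46.9 against 69.1, 84.1 and 59.2 FPKM (0.63 ± 0.12, adjusted p = 0.206). Zfp36, which destabilises cytokine mRNAs, measured 23.1, 18.6 and 26.0 against 30.7, 39.2 and 30.1 FPKM (0.54 ± 0.13). The groups did not overlap for these 3. Cyr61, a matricellular protein (0.41 ± 0.09), Csrnp1 (0.40) and the secreted pentraxin Nptx2 (0.53 ± 0.11) also separated the groups. Arc, a synaptic capsid-like protein, measured 2.19, 2.68 and 1.58 against 2.60, 3.54 and 2.22 FPKM and overlapped, and Npas4 and Bdnf were under the level tested.

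**Figure D2:**
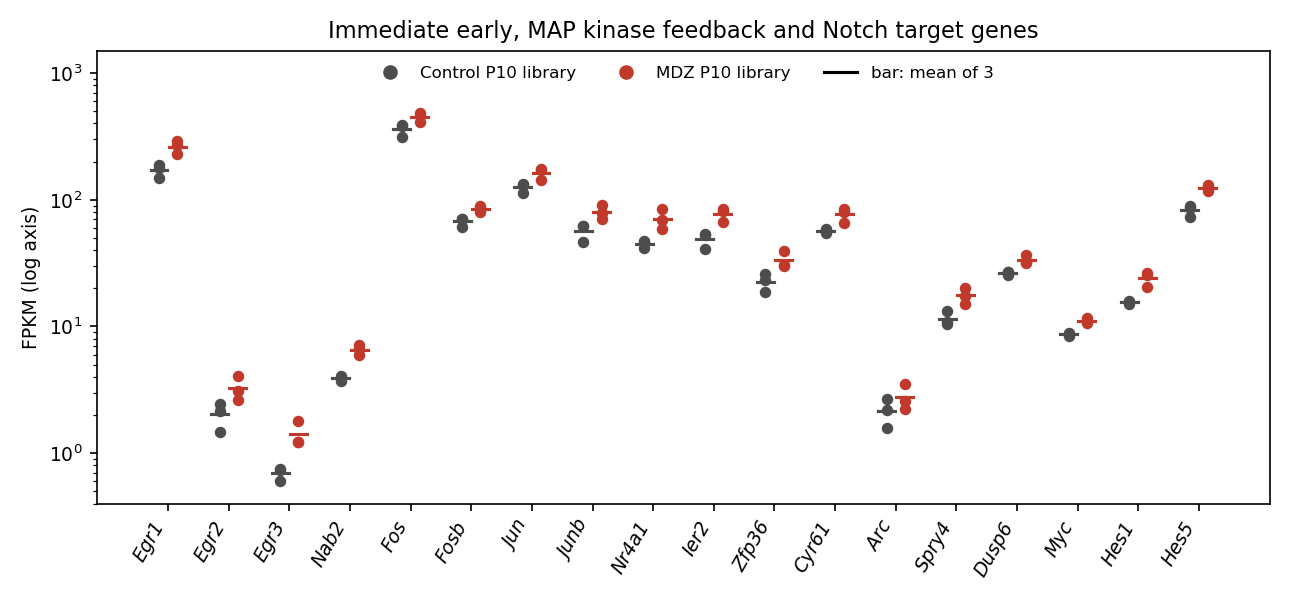
FPKM (log axis) of 18 immediate early, MAP kinase feedback and Notch target genes in each library, with bars for the means of 3. Every gene drawn except Arc has its 3 MDZ P10 points above its 3 Control P10 points, and Fos and Egr1 are the most abundant. The 18 were picked with their values known and do not stand for their lists. Of all members tested, 4 of 5 (Egr and Nab), 6 of 9 (AP-1), 12 of 30 (Nr4a, Ier and others), 9 of 18 (MAP kinase feedback) and 10 of 26 (Notch) separated upward. Nab1, Maff, Homer1, Il17rd and Heyl, which overlapped or were lower, are not drawn.

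The counts on immediate early genes were also taken with single libraries left out. Without Control P10 replicate 2, 4 of 5, 6 of 9 and 18 of 30 members separated the groups upward, where 21.6% of all genes did. Without MDZ P10 replicate 1, the counts were 4, 6 and 12 (15.1% of all genes), and without MDZ P10 replicate 3 they were 4, 7 and 18 (19.9%). Without Control P10 replicate 1, they were 4, 7 and 13 (16.3%). With median-of-ratios scaling they were 4, 6 and 10 (9.27%). When Control P10 replicate 2 was left out, the number of genes past an adjusted p of 0.05 went from 1 to 101, 93 of them higher, and Nab2 (adjusted p = 0.0313), the pseudokinase Trib1 (0.0313), Nptx2 (0.0333), Spry4 (0.0376) and Phlda1 (0.0423) were among them, while Egr1 was not (0.0588). Leaving out any other library gave 0 to 2 genes.

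Promoter sequence was read for 3 of these genes because their differences ran together, as the 250 bases before the start that the RefSeq table (GRCm38.p6) lists, with matches to 4 motifs in capitals: the EGR site GCGNGGGCG, the cAMP response element TGACGTCA, its shorter form TGACG, and the CArG box bound by serum response factor, all on both strands. The full cAMP response element contains the shorter form. The windows are Fos at chr12:85473640-85473889 (plus strand), Junb at chr8:84978749-84978998 (minus strand) and Nr4a1 at chr15:101266596-101266845 (plus strand). The Nr4a1 window lies before an internal start, within the annotated gene (chr15:101253902-101274795):
Fos: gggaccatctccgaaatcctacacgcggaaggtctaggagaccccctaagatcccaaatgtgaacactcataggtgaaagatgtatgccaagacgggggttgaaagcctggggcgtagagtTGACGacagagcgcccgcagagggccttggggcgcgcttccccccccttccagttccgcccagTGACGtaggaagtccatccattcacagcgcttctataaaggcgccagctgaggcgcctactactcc
Junb: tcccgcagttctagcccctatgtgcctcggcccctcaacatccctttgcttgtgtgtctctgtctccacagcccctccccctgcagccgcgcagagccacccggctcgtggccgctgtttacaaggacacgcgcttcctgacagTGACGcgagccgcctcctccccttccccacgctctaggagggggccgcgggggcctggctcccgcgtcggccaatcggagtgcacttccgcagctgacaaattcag
Nr4a1: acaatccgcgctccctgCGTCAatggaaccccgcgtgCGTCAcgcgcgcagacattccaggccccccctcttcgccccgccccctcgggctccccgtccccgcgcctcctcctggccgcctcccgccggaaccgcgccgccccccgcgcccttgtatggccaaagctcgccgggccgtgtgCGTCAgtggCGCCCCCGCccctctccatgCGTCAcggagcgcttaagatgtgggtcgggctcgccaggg

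Fos held 2 copies of TGACG, Junb 1, and Nr4a1 4 copies and 1 EGR site. Over 45 windows of 34 of the 44 immediate early genes tested, 60% held TGACG, 26.67% an EGR site, 11.11% a CArG box and 6.67% the full cAMP response element. Over all 32851 windows in the table those shares were 17.77%, 4.7%, 1.47% and 1.55%. Among windows of genes that separated the groups upward the shares were 28.15%, 9.06%, 1.71% and 3.81%, close to the 26.4%, 9.23%, 1.15% and 2.59% of all genes tested. A match describes letters and not binding, and genes with several starts have several windows.

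Targets of the MAP kinase cascade, many of which restrain it in turn, showed the same direction. Of 18 tested, 17 had a positive difference, 9 separated the groups upward and 1, Il17rd, downward (12.2% and 6.61% of all genes), with a median of 0.24. Spry4, a Sprouty inhibitor of receptor tyrosine kinase signalling, measured 10.4, 13.2 and 10.9 FPKM in controls and 17.4, 20.3 and 15.1 FPKM after midazolam (log2 0.57 ± 0.12, adjusted p = 0.215). Dusp6, a phosphatase that inactivates ERK, measured 25.7, 27.0 and 27.1 against 36.4, 32.0 and 31.8 FPKM (0.32 ± 0.06, adjusted p = 0.215). Spry2, Spred3, Etv4, Etv5 and the growth regulator Myc (8.81, 8.77 and 8.48 against 11.7, 10.6 and 11.0 FPKM, 0.32 ± 0.06) also separated the groups.

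EGF and FGF receptors and ligands act above this cascade. Of 14 EGF and FGF family genes tested, 10 were positive (median 0.07) and 4 separated the groups upward, which is 28.6% beside 12.2% of all genes. The count was 1 with median-of-ratios scaling or quantile normalization (9.27% and 9.44% of all genes). It was 8 without Control P10 replicate 2 (21.6%). Fgfr1 measured 65.6, 52.1 and 60.3 against 68.4, 67.0 and 72.6 FPKM (log2 0.23 ± 0.09), and Fgfr2 19.8, 19.0 and 18.5 against 20.2, 21.1 and 21.9 FPKM. In both, the highest control and the lowest exposed value lay close together. Egfr (17.6, 13.2 and 14.8 against 12.3, 16.2 and 14.1 FPKM) and Fgfr3 (159, 137 and 129 against 140, 145 and 145 FPKM) overlapped.

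Notch target genes were among those with the smallest p in the comparison. Of 26 Notch receptors, ligands, modifiers and targets tested, 19 were positive (median 0.09). Of these 26, 10 separated the groups upward and 2 downward, beside 12.2% and 6.61% of all genes. With median-of-ratios scaling the upward count was 6, and without MDZ P10 replicate 3 the downward count was 4. Hes5, a repressor that holds radial glia in the stem cell state, measured 86.0, 89.7 and 73.1 FPKM in controls and 130, 128 and 116 FPKM after midazolam (log2 0.59 ± 0.09, adjusted p = 0.198). Hes1, its relative, measured 15.5, 16.0 and 15.02 against 25.3, 26.3 and 20.4 FPKM (0.59 ± 0.09, adjusted p = 0.198). All exposed values were above all controls, and without Control P10 replicate 2 both passed over all genes (adjusted p 0.0313 for Hes5 and 0.0422 for Hes1).

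The other targets and the ligands had smaller differences. Hey1 (31.5, 25.8 and 29.1 against 35.8, 33.5 and 33.7 FPKM, log2 0.25 ± 0.07) and the feedback gene Nrarp (69.9, 63.9 and 63.8 against 79.0, 76.2 and 75.6 FPKM, 0.22 ± 0.06) separated the groups upward. Heyl went the other way, at 5.75, 5.60 and 5.73 against 4.34, 4.42 and 4.99 FPKM (-0.26 ± 0.07), as did Rbpj, the DNA-binding partner of Notch. The ligand Dll1 measured 15.6, 14.2 and 14.6 against 17.1, 16.4 and 15.7 FPKM (0.14 ± 0.06). So the targets did not share 1 direction, and Hes5 and Hes1 had the largest differences of the genes named here. The 250 bases before the listed Hes5 start (chr4:154960673-154960922, plus strand), which lie within the annotated extent of the gene (chr4:154960626-154962372), hold 2 matches to the core letters of the RBPJ site, TGGGAA on either strand, in capitals, as 21.59% of all windows hold at least 1:
Hes5: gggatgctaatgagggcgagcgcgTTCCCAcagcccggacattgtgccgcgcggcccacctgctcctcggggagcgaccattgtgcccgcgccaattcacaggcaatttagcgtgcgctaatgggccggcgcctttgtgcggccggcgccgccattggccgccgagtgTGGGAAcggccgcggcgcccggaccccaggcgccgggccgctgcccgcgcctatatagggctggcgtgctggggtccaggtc

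Of 25 radial glia genes tested, 20 were positive (median 0.06). Of these 25, 6 separated the groups upward (24%) and 2 downward (8%), beside 12.2% and 6.61% of all genes. Hes5 and Hes1, counted also with the Notch genes, were among the 6. The counts were 6 and 5 and the median was -0.04 without Control P10 replicate 2. Fabp7 was lower, at 1037, 904 and 1203 against 836, 777 and 750 FPKM (log2 -0.40 ± 0.12, adjusted p = 0.293), with all exposed values below all controls. Nes (10.7, 8.71 and 11.1 against 9.19, 10.1 and 9.61 FPKM), Sox2 (106, 87.4 and 105 against 104, 106 and 98.8 FPKM) and Hopx (89.2, 72.6 and 101 against 103, 95.9 and 86.2 FPKM) overlapped. Sox9, Id4 and Thbs4 were among those that separated the groups upward and Prom1 downward.

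Of 10 intermediate progenitor genes 1 was positive (median -0.12), and of 25 neuroblast genes 4 were positive (median -0.12), and no member of either list separated the groups. Without Control P10 replicate 2, 2 progenitor and 7 neuroblast genes separated downward and 1 neuroblast gene upward, and without Control P10 replicate 3 the progenitor median was 0.01. Eomes, the progenitor factor, measured 23.0, 15.6 and 30.0 against 17.7, 16.3 and 21.2 FPKM (log2 -0.26 ± 0.21). Dcx, a microtubule protein of migrating neuroblasts, measured 28.4, 25.5 and 30.2 against 23.9, 22.6 and 28.6 FPKM (-0.16 ± 0.10), and Neurod1, a factor of granule neuron differentiation, 52.9, 39.6 and 59.8 against 47.5, 40.1 and 53.6 FPKM (-0.10 ± 0.15). Controls ranged widely for these genes, replicate 2 low and replicate 3 high, and the exposed values lay inside or near that range.

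Other signals known to act on these cells include Hedgehog, BMP and Wnt. The background for their counts is 12.2% of genes upward and 6.61% downward. Of 10 Hedgehog genes tested, 5 were positive, 1 (Gas1) separated the groups upward and 2 (Ptch1 and Gli1) downward (median -0.01), with 4 upward without Control P10 replicate 1. Ptch1, the receptor and target of Hedgehog, measured 28.5, 23.1 and 23.1 against 18.1, 19.0 and 21.6 FPKM (log2 -0.33 ± 0.10, adjusted p = 0.276), and Gli1, the factor whose level reports the pathway, 9.96, 7.36 and 8.76 against 7.11, 6.52 and 6.87 FPKM (-0.30 ± 0.10, adjusted p = 0.306). Hhip, a further Hedgehog target, measured 2.16, 3.68 and 2.28 against 1.81, 2.30 and 2.01 FPKM and overlapped. Of 21 BMP and Id genes, 13 were positive and 2 separated upward (median 0.02), with Id1 at 49.9, 36.0 and 53.1 against 61.7, 59.2 and 51.8 FPKM and overlapping. The BMP counts were 5 upward and 5 downward without Control P10 replicate 2, and 7 and 1 without MDZ P10 replicate 3. Of 28 Wnt genes, 21 were positive, 5 separated upward and 1 downward (median 0.06), or 5 and 6 without Control P10 replicate 2. Sp5, a target of Wnt signalling, had the largest of these differences among those named, at 1.53, 1.12 and 1.63 against 2.67, 2.12 and 2.24 FPKM (0.47 ± 0.11), and the receptor Fzd9 measured 17.5, 14.5 and 15.4 against 19.9, 21.9 and 19.6 FPKM (0.35 ± 0.08).

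Cell cycle genes were read by phase. Of 45 S phase genes tested, 38 were positive, 22 separated the groups upward and 0 downward (median 0.14), beside 12.2% and 6.61% of all genes. Pcna, the sliding clamp of DNA polymerase, measured 35.1, 36.2 and 37.1 FPKM in controls and 44.7, 41.3 and 43.3 FPKM after midazolam (log2 0.25 ± 0.05, adjusted p = 0.215). Cdt1, which loads the replicative helicase, measured 5.55, 5.51 and 6.57 against 7.77, 7.39 and 7.75 FPKM (0.33 ± 0.07), and the DNA ligase Lig1 8.33, 8.87 and 9.32 against 10.8, 10.4 and 11.5 FPKM (0.27 ± 0.06). Helicase subunits Mcm3, Mcm4, Mcm5 and Mcm7 separated the groups too, while Mcm2 (10.0, 10.1 and 12.3 against 11.4, 12.3 and 13.2 FPKM) overlapped. The upward count was 22 to 32 when single libraries were left out and 23 with median-of-ratios scaling.

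Of 35 G2/M and mitosis genes, 12 were positive and 0 separated the groups in either direction (median -0.02). Without Control P10 replicate 3, 8 separated upward (median 0.06), and without MDZ P10 replicate 3, 5 separated downward (median -0.10). Mki67, a protein of dividing cells, measured 11.97, 11.4 and 14.4 against 9.98, 10.7 and 13.4 FPKM (log2 -0.14 ± 0.12), and Ccnb1, the mitotic cyclin, 6.84, 6.57 and 8.05 against 5.98, 6.57 and 7.49 FPKM. Of 14 G1 genes, 13 were positive (median 0.14) and 2 separated upward, which is 14.3% beside 12.2% of all genes. Without Control P10 replicate 3, 6 separated upward (19.3% of all genes did). With all libraries the 2 were Ccnd3 at 10.7, 11.1 and 10.5 against 13.9, 13.6 and 12.7 FPKM (0.29 ± 0.05, adjusted p = 0.206) and Myc. The inhibitors Cdkn1a, Cdkn1b and Cdkn1c all overlapped, with log2 differences of 0.14, -0.05 and 0.11, and Btg2, an antiproliferative gene of the immediate early class, separated upward (32.4, 23.9 and 33.9 against 47.4, 45.0 and 37.9 FPKM). The difference between the S phase and G2/M lists was not tested.

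**Figure D3:**
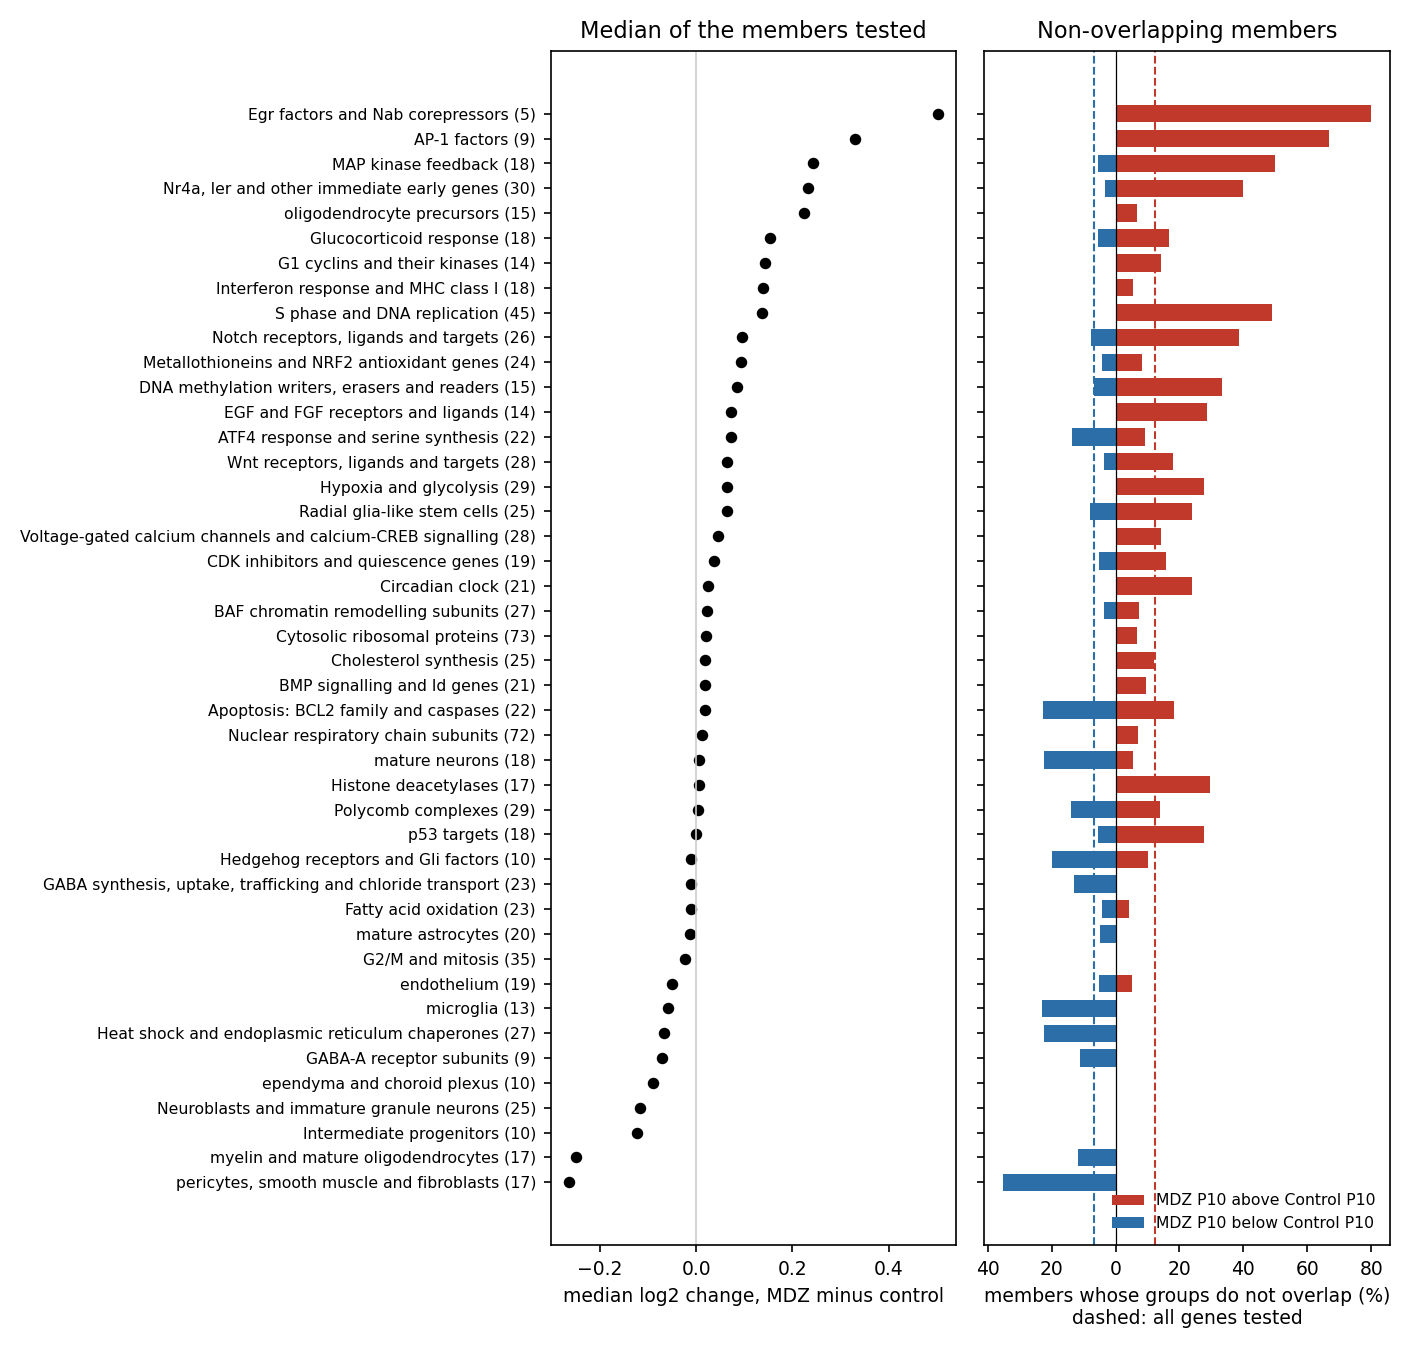
Left, median log2 difference (MDZ P10 minus Control P10) of the members tested in each gene list, with their number in parentheses. Right, the percentage of those members whose groups do not overlap, with dashed lines at 12.2% higher and 6.61% lower for all genes tested. Egr, AP-1, MAP kinase feedback and immediate early lists lie at the top, and pericyte and myelin markers at the bottom.

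Of 18 GABA-A subunits listed 9 were tested, 3 were positive, 0 separated the groups upward and 1 downward (median -0.07), or 3 and 3 without Control P10 replicate 2. For this list and the next, the shares of all genes were 12.2% and 6.61%, or 21.6% and 14.2% without that library. Gabrg1, a gamma subunit, measured 16.5, 16.4 and 16.2 against 13.6, 15.7 and 13.96 FPKM (log2 -0.18 ± 0.06, adjusted p = 0.337). The alpha subunits Gabra2 (12.6, 10.6 and 13.96 against 11.2, 11.0 and 11.2 FPKM) and Gabra4 (11.4, 9.49 and 11.6 against 10.4, 9.80 and 10.5 FPKM) overlapped.

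Of 23 genes for GABA synthesis, uptake, trafficking and chloride transport, 11 were positive and 3 separated downward (median -0.01), or 4 upward and 5 downward without Control P10 replicate 2. They included Abat, which breaks GABA down (36.6, 38.7 and 35.9 against 31.3, 35.3 and 32.2 FPKM). The chloride importer Slc12a2 measured 18.5, 29.0 and 20.4 against 20.9, 22.3 and 20.5 FPKM, with Control P10 replicate 2 high, and the exporter Slc12a5 lay near 1 FPKM. Of 28 calcium channel and CREB pathway genes, 22 were positive and 4 separated upward (Camk2b, Camk2d, Crtc1 and Crtc2; median 0.04), which is 14.3% beside 12.2% of all genes. That count was 1 with median-of-ratios scaling or quantile normalization and 12 without Control P10 replicate 2. Creb1 itself measured 7.57, 6.74 and 8.10 against 6.88, 6.21 and 7.02 FPKM and overlapped.

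Cell death genes had no shared direction. Of 22 BCL2 family and caspase genes, 12 were positive (median 0.02), 4 separated the groups upward (18.2%) and 5 downward (22.7%). The shares of all genes were 12.2% and 6.61%. Without Control P10 replicate 3, the counts were 8 and 5. Bax, a pro-apoptotic pore protein, measured 55.0, 53.9 and 51.4 against 67.7, 59.5 and 59.2 FPKM (log2 0.21 ± 0.07, adjusted p = 0.296). All 3 exposed values were above all controls. Birc2, an inhibitor of apoptosis protein, measured 13.5, 13.2 and 14.7 against 11.8, 11.7 and 11.2 FPKM (-0.24 ± 0.06, adjusted p = 0.237) and separated the groups downward. Of 18 p53 targets 9 were positive, 5 separated upward (27.8%) and 1 downward (5.56%), or 5 and 4 without Control P10 replicate 1. Btg2, listed also with the CDK inhibitors and quiescence genes, was among the 5, while Cdkn1a and Mdm2 overlapped.

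Of 29 hypoxia and glycolysis genes 24 were positive (median 0.06) and 8 separated upward, which is 27.6% beside 12.2% of all genes. Vegfa, the angiogenic factor, measured 118, 109 and 106 against 138, 121 and 138 FPKM (log2 0.26 ± 0.07). Ldha, lactate dehydrogenase, measured 47.9, 48.9 and 53.7 against 64.4, 54.7 and 59.6 FPKM (0.24 ± 0.07). Of 27 heat shock and endoplasmic reticulum chaperone genes 8 were positive (median -0.07). Of these 27, 6 separated downward (22.2%, beside 6.61% of all genes), or 11 with median-of-ratios scaling. The median was 0.01 without Control P10 replicate 3, and 11 separated downward without Control P10 replicate 2. Xbp1, a factor of the unfolded protein response, measured 22.6, 22.9 and 24.7 against 19.6, 18.7 and 20.5 FPKM (-0.24 ± 0.06). Hspa5, its chaperone target, measured 150, 156 and 165 against 138, 149 and 144 FPKM (-0.13 ± 0.06), just separating the groups.

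Of 18 glucocorticoid response genes 15 were positive, 3 separated upward and 1 downward (median 0.15). The upward and downward shares were 16.7% and 5.56%, beside 12.2% and 6.61% of all genes. Without Control P10 replicate 2, 12 of the 18 separated upward (21.6% of all genes did), and Hif3a passed over all genes (adjusted p = 0.0438). With all libraries, Hif3a measured 1.62, 2.62 and 0.997 against 3.88, 2.86 and 4.89 FPKM (log2 0.85 ± 0.23) and Fkbp5, a chaperone of the receptor, 4.14, 4.80 and 4.95 against 5.43, 5.15 and 5.64 FPKM. The receptor Nr3c1 separated downward, at 20.8, 19.2 and 20.8 against 17.3, 18.1 and 17.3 FPKM (-0.20 ± 0.05, adjusted p = 0.251). Sgk1, another known target, overlapped. Of 22 ATF4 pathway genes 15 were positive, 2 separated upward and 3 downward (9.09% and 13.6%). Without Control P10 replicate 3 the counts were 6 and 3, where 19.3% and 8.53% of all genes separated. The cystine transporter Slc7a11 separated downward (26.8, 25.2 and 25.7 against 19.4, 22.0 and 22.4 FPKM) while Slc7a5, described above, separated upward.

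Markers of other cell types were read beside these results, since the sort holds more than stem cells. Of 17 pericyte, smooth muscle and fibroblast genes tested (of 19 listed), 1 was positive, 0 separated the groups upward and 6 downward (median -0.26). The downward share was 35.3%, beside 6.61% of all genes. The summed level of all 19 listed was 297.5 to 345.2 FPKM in controls and 251.5 to 278.9 FPKM after midazolam, without overlap. The downward count was 12 without Control P10 replicate 1 (12.5% of all genes) and 13 without MDZ P10 replicate 3 (12.1%). Col3a1, a fibrillar collagen, measured 8.33, 12.1 and 12.9 against 3.77, 3.77 and 8.14 FPKM (log2 -1.01 ± 0.26, adjusted p = 0.247). Tagln, of smooth muscle, measured 11.5, 10.3 and 11.6 against 7.68, 6.63 and 9.48 FPKM (-0.45 ± 0.11), and Rgs5, of pericytes, 87.8, 82.4 and 105 against 76.9, 63.3 and 68.4 FPKM (-0.39 ± 0.10). The leading lower genes Fmod, Tbx18 and Prrx1 moved with this list, and its part in their differences was not tested. Endothelial genes, which share the vessels, had 9 of 19 positive and a median of -0.05, with 1 separating in each direction, 6 downward without MDZ P10 replicate 1 and 5 upward without MDZ P10 replicate 2.

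Oligodendrocyte precursor genes lay higher and myelin genes lower, but 1 library carried much of this. Of 15 precursor genes 11 were positive and 1 separated the groups (median 0.22), with summed levels of 1371 to 1994 FPKM in controls and 1651 to 1869 FPKM after midazolam. Pdgfra, the precursor receptor, measured 88.5, 150 and 96.1 against 134, 161 and 127 FPKM (log2 0.36 ± 0.19): Control P10 replicate 2 lay among the exposed mice and the other controls below them. Without that library 13 of the 15 separated the groups upward (21.6% of all genes did), and C1ql1 (adjusted p = 0.0313), Matn4 (0.0313), Cspg4 (0.0376) and Pdgfra (0.0438) passed over all genes. Of 17 myelin genes 0 were positive (median -0.25), but without that library the median was 0.11, and the same library was the highest for Mbp, myelin basic protein (185, 374 and 188 against 228, 239 and 178 FPKM).

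Of 20 astrocyte genes 9 were positive (median -0.01), and Aqp4, the water channel, was the 1 that separated the groups (237, 188 and 226 against 182, 184 and 184 FPKM). There were 6 astrocyte genes that separated upward without Control P10 replicate 1, and 5 that separated downward without Control P10 replicate 2. Microglia genes were near the limit, with 13 of 19 tested, Cx3cr1 at 1.01 to 1.18 FPKM and 3 genes separating downward (5 without Control P10 replicate 3). All 19 summed to 34.2 to 39.6 against 31.9 to 36.3 FPKM. Of 18 mature neuron genes tested 10 were positive, 1 separated upward and 4 downward (7 and 5 without Control P10 replicate 2). All 28 listed summed to 393.8 to 399.2 against 376.8 to 389.7 FPKM. Over all genes tested, 12.2% separated upward and 6.61% downward. Without Control P10 replicate 2 the shares were 21.6% and 14.2%. They were 16.3% upward without Control P10 replicate 1 and 8.53% downward without Control P10 replicate 3. Ttr, the choroid plexus transcript, ran from 0.683 to 181 FPKM without regard to group.

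**Figure D4:**
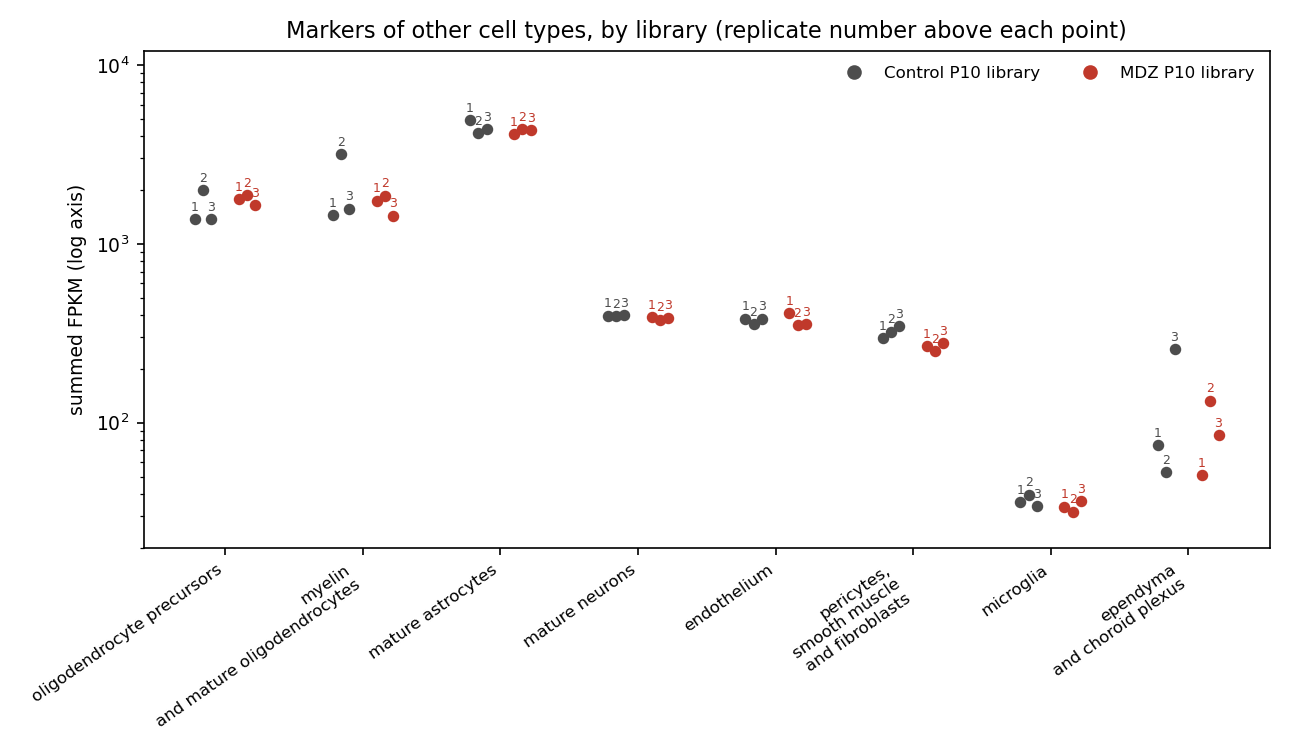
Summed FPKM (log axis) of all listed markers, tested or not, of 8 other cell types in each library, with the replicate number above each point. Pericyte, smooth muscle and fibroblast sums are lower in all 3 exposed mice than in all controls, and Control P10 replicate 2 stands high for both oligodendrocyte lists.

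Gene length moved with the comparison as well. Genes whose genomic span was in the shortest quartile (up to 9.6 kb) separated the groups upward in 18.8% of cases and downward in 3.05%, and those in the longest quartile (over 58.3 kb) in 6.19% and 11.28%. The pattern was of unequal size among libraries: the median deviation of the shortest minus the longest quartile was 0.114 in MDZ P10 replicate 1, 0.028 in replicate 2 and -0.014 in replicate 3, against -0.054, -0.049 and -0.020 in the controls. Without MDZ P10 replicate 1 the upward shares were 21.29% and 10.44%. Immediate early genes are short, with 22 of the 30 in the Nr4a and Ier list falling in the shortest quartile, and 4 of 5 Egr and Nab genes. Their upward shares (40% and 80%) stand beside the 18.8% of all genes in that quartile, and the part of gene length in their differences was not tested. S phase genes had 10 of 45 in the shortest quartile, and GABA-A subunits had all 9 tested in the longest.

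**Figure D5:**
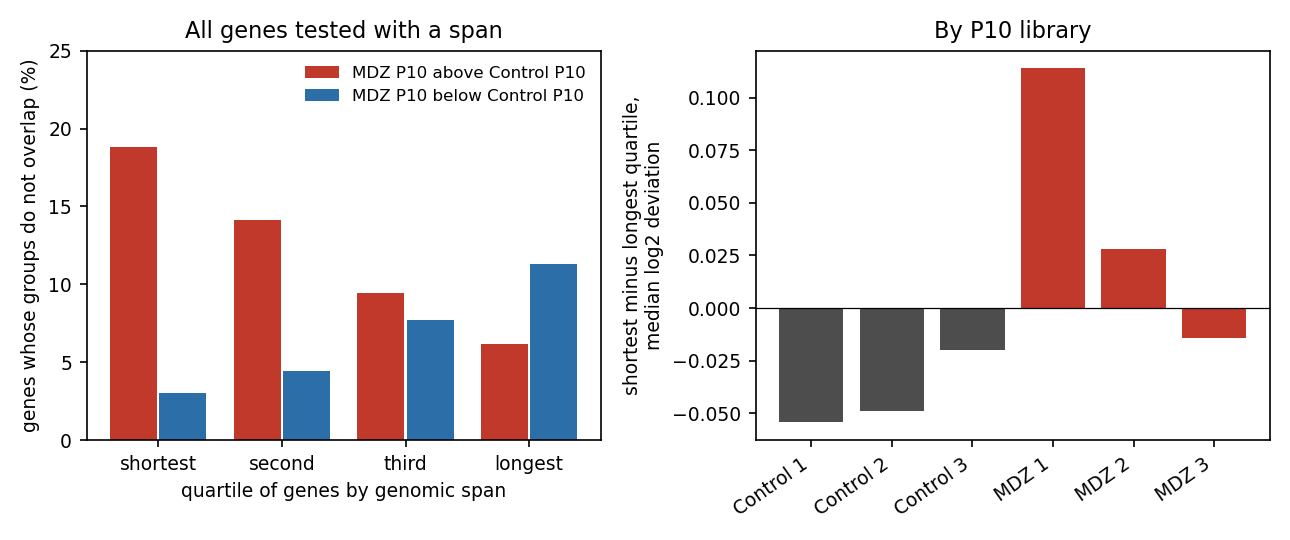
Left, percentage of genes in each quartile of genomic span whose MDZ P10 libraries all lie above (red) or below (blue) the controls. Right, for each library, the median log2 deviation from the mean of all 6 in the shortest quartile minus that in the longest, which is highest in MDZ P10 replicate 1 (0.114).

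The same study added Egr1 to cultured neural stem cells, which allowed a look at whether genes that respond to Egr1 there differed in the exposed mice. The cultures came from embryonic cortex and carried lentiviruses for the M2rtTA transactivator without (Control culture) or with Flag-tagged Egr1 (Egr1 culture), 3 libraries each, and whether these were separate cultures is not stated, so their spread may be technical. Egr1 measured 361, 285 and 344 TPM (transcripts relative to the library total) in Control culture and 1769, 1390 and 1291 TPM in Egr1 culture. Of 12402 genes tested, 15.2% were higher and 29% lower at an adjusted p of 0.05 (limma). Of the 100 with the largest rise in culture, 53 were tested at P10, and 19 of these (35.8%) had a positive difference in the exposed mice (median -0.03), 4 separating the groups upward (7.55%) and 3 downward (5.66%). Over all genes tested at P10 the shares were 55.9% positive, 12.2% upward and 6.61% downward. Of the 100 with the largest fall, 73 were tested, 39 were positive (53.4%, median 0.01), 10 separated upward (13.7%) and 6 downward (8.22%).

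Single members went both ways. Ptpn5, a neuronal phosphatase, rose in culture and measured 9.58, 10.7 and 9.54 against 13.1, 13.9 and 12.6 FPKM at P10 (log2 0.38 ± 0.06), and Meox1, a homeobox gene, also rose in culture and measured 2.35, 2.53 and 1.42 against 3.97, 4.24 and 4.71 FPKM (0.79 ± 0.14). Both separated the groups upward (adjusted p = 0.206). Neat1 likewise rose in culture and separated upward (0.28). Olfml3 and C1qtnf1 rose in culture but separated the groups downward at P10 (-0.37 and -0.30), and Nid1 rose in culture and overlapped (-0.27). Junb and Cyr61 fell in culture (log2 -1.39 and -1.46) but were above control at P10, with differences of 0.49 and 0.41. Hip1, Chst7 and Irs2 fell in culture and separated upward at P10 (0.21, 0.25 and 0.42). Col18a1 fell in culture (-1.37) and separated downward (-0.49). Across genes tested in both experiments, Pearson's r of the log2 differences was -0.04 and Spearman's rho -0.03, a description over genes, which are not independent. Nab2 had a culture difference of 0.21 (adjusted p = 0.0831), smaller than its 0.62 at P10, though culture and P10 values come from different units and cells.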

How the data were processed

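Poly(A) RNA of sorted cells was isolated with a Dynabeads mRNA DIRECT Micro kit and sequenced from NEBNext Ultra Directional libraries, per the labels' protocols. The deposited P10 values are FPKM and the deposited culture values are TPM, units read from the values since the labels do not state them. The submitters' processing notes list the mm10 build and the tools TopHat, Bowtie2 and DESeq2, with no version and no word on what each did. What annotation and strand setting were used is not given in the sources used here. Thus overlapping genes, antisense genes and near-identical copies are uncertain. The authors' read counts were not used here, and depth is known only relatively, from the steps between values of 0.005 to 0.1 FPKM.

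Groups came from sample titles. Values were tested as log2(value + 1) with limma-trend (limma 3.58.1, R 4.3.3) on genes with a mean of at least 1, within each experiment, with Benjamini-Hochberg adjustment over all genes tested. A change on this scale understates that of low genes. With 3 libraries a group, non-overlap was counted beside the test. The fit was tested on simulated data with independent noise and the same spread of a gene in every library. That setting held no outlying library and no gene length pattern, so it does not cover those features of the data. Titles share replicate numbers without a statement that they pair mice, so numbers were not used as pairs. Deviations of same-numbered mice had correlations of -0.0771, 0.12 and 0.106, within the -0.216 to 0.165 of all 9 combinations. With 3 mice a group these values cannot show whether mice were paired. Sequences and spans came from RefSeq tables of GRCm38.p6 (Python 3.11.15, pandas 2.3.3, matplotlib 3.10.9), which gave a span for 99.7% of genes tested. Settings tried were the pseudocount, the filter, 3 scalings, library weights, a replicate block, a sex covariate, an untrended fit and each library left out.

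Members and lists were chosen with earlier results of these data known. Named genes are those past an adjusted p of 0.05, the 12 per direction with the smallest p among non-overlapping genes (Xist and Y-linked genes left out), the core genes of each list, up to 4 further members by p, the highest-expressed member where a level is described, and 6 members of each culture list. Other list members are named only as separating the groups, after their values were seen. Samples of 8-week mice, and those of ATAC or chromatin immunoprecipitation, were not used here. A few list members are counted but not reported by name here. Some genes belong to more than 1 list and are counted in each.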

Additional observations from a re-analysis of the deposited data

How the results depend on the processing

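The count of 1 gene past an adjusted p of 0.05 at P10 was 2 with a pseudocount of 5, 4 with a minimum mean of 5, 4 with quantile normalization and 5 with library quality weights. It was 0 with median-of-ratios scaling, 0 with the Y-linked to Xist ratio as a covariate and 0 in the fit without a trend. Without 1 library at a time it ran from 0 to 101, the highest without Control P10 replicate 2. With the replicate block it was 0 (Igsf1 adjusted p = 0.0736), beside 1545 genes at an unadjusted p below 0.05. With no filter, Igsf1 was lost (adjusted p = 0.17) and the single gene that passed was Gm12238, at a mean of 0.147 FPKM. Siah3, Gm12504 and Atp5j2 were the genes added by the higher filter and by quantile normalization, and library weights also added Nab2. Without MDZ P10 replicate 3 the genes that passed were Hes1 and Atp5j2. The causes of these shifts were not tested. The Igsf1 log2 change kept its direction in all 17 alternatives, from -0.91 to -0.53. Some members named only as separating the groups, such as Fosl2 and Etv4, were not followed across the alternatives. Of the genes followed, none that separated the groups changed sign under any alternative. Medians of some lists and genes that overlapped did: without Control P10 replicate 2 the myelin median went from -0.25 to 0.11, Mbp from -0.14 to 0.19, the radial glia median from 0.06 to -0.04 and Slc12a2 from -0.07 to 0.12, and without Control P10 replicate 3 the G2/M median went from -0.02 to 0.06. The culture count of 1888 higher and 3598 lower genes together stayed within 1.5 times in every alternative. Low genes are limited by depth, which is known only relatively.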

Other observations

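Of 72 nuclear respiratory chain subunits tested at P10, 41 were positive (median 0.01) and 5 separated the groups upward (6.94%, beside 12.2% of all genes). Atp5j2 was one of them, and Cox8a, a subunit of cytochrome oxidase, was another, at 110, 100 and 105 FPKM in controls against 147, 142 and 123 FPKM after midazolam (log2 0.38 ± 0.08, limma adjusted p = 0.215). Of 73 cytosolic ribosomal protein genes, 45 were positive and 5 separated upward (median 0.02), and Rps6 (33.5, 34.9 and 36.7 against 35.5, 32.4 and 33.2 FPKM) overlapped. Without MDZ P10 replicate 3 the upward counts were 25 of 72 and 27 of 73, where 19.9% of all genes separated upward. Of 25 cholesterol synthesis genes 17 were positive (median 0.02) and 3 separated upward (12%, beside 12.2% of all genes), or 6 without MDZ P10 replicate 3. Of 23 fatty acid oxidation genes 10 were positive, with 1 separating in each direction, or 9 downward without Control P10 replicate 2 (14.2% of all genes).

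For the lists that follow, the background is 12.2% of genes separating upward and 6.61% downward. Of 17 histone deacetylases 9 were positive and 5 separated upward (3 with median-of-ratios scaling, 8 without Control P10 replicate 3). They were led by Hdac4 at 3.91, 3.31 and 3.36 against 4.32, 4.51 and 4.69 FPKM (log2 0.29 ± 0.07, limma adjusted p = 0.251). Of 29 Polycomb genes 15 were positive, with 4 (13.8%) separating in each direction (7 upward and 5 downward without Control P10 replicate 3). Ezh2, the methyltransferase, overlapped. Of 15 DNA methylation genes 8 were positive and 5 separated upward, among them the maintenance methyltransferase Dnmt1 (16.9, 16.4 and 17.3 against 18.01, 17.6 and 19.97 FPKM), while Dnmt3a separated downward, as did 3 of the 15 without MDZ P10 replicate 3. Of 21 clock genes 12 were positive and 5 separated upward (6 upward and 5 downward without Control P10 replicate 2), among them Per2 (7.12, 7.20 and 6.79 against 8.95, 8.13 and 8.22 FPKM) and Nr1d1 (34.4, 34.2 and 31.5 against 39.0, 41.9 and 37.4 FPKM), and the labels used here give no hour of collection. All 18 interferon and MHC class I genes tested were positive (median 0.14). The interferon-induced Ifitm1, which separated the groups downward, is not in this list. Of the 18, only H2-K1 separated the groups (16.0, 16.0 and 17.0 against 19.0, 20.6 and 18.4 FPKM), which is 5.56% beside 12.2% of all genes. The count was 10 of 18 without MDZ P10 replicate 3 and 6 without Control P10 replicate 3, where 19.9% and 19.3% of all genes separated upward.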
